A study of Mus musculus with 12 samples.

Results

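The genes described here encode the main noncollagenous proteins of bone matrix. They were *Bglap*, *Bglap2* and *Bglap3* (the osteocalcin genes), *Ibsp* (bone sialoprotein), *Spp1* (osteopontin), *Dmp1*, *Mepe*, *Sparc* (osteonectin), *Mgp* (matrix Gla protein) and *Ifitm5*. They were taken by symbol, 10 of the 47069 genes in the count matrix. That rule uses no measured value, although the 10 genes were chosen with earlier results of these data known. Each of the 10 symbols matched 1 gene, and all 10 passed the filter on low counts in every comparison.

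RNA was sequenced from the tibia shaft of 12 male mice aged 8 weeks, after removal of the bone marrow, with 1 library per mouse and n = 4 mice per group. WT mice were *Col1a1* +/+ and *Sost* +/+. Jrt;Sost-het mice were heterozygous for the Jrt allele of *Col1a1*. Their labels give only Col1a1Jrt/+, and *Sost* +/- is from the study's methods. Jrt;Sost-ko mice carried the same Jrt allele and were *Sost* -/-. The Jrt allele is a germline splice-donor variant of *Col1a1* whose collagen chain lacks part of the triple helix, and heterozygous mice are a dominant model of severe osteogenesis imperfecta. *Sost* encodes sclerostin, an osteocyte protein that inhibits Wnt signalling and bone formation. All mice were of mixed FVB/C57BL6 background. The Jrt mice came from a colony in which a recombination had joined the Jrt and *Sost* null alleles on chromosome 11, and the WT mice from a parallel colony, and in comparisons with WT the effects of genotype and colony cannot be told apart. Mice are numbered 1 to 4 within each group, and the numbers pair no mice between groups. The 3 comparisons share mice with each other and are not independent.

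Bone matrix is collagen type I filled with mineral and a smaller mass of noncollagenous proteins that osteoblasts and osteocytes secrete. Osteocalcin and matrix Gla protein carry gamma-carboxyglutamate residues, made in a vitamin K-dependent reaction, that bind calcium. Osteocalcin is a product of mature osteoblasts, whereas matrix Gla protein, which inhibits calcification, is also made by chondrocytes and vascular smooth muscle cells. Bone sialoprotein, osteopontin, DMP1 and MEPE are small integrin-binding ligand N-linked glycoproteins, secreted proteins with an Arg-Gly-Asp motif that integrins bind. Bone sialoprotein is tied to the start of mineral deposition, osteopontin inhibits crystal growth and is also made by osteoclasts, and DMP1 and MEPE are products mainly of osteocytes. SPARC binds collagen and mineral, and IFITM5 is a membrane protein of osteoblasts.

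The osteocalcin genes lie next to each other on the minus strand of chromosome 3 within 15849 bp (GRCm38), *Bglap* at 88383501 to 88384464, *Bglap2* at 88377736 to 88378699 and *Bglap3* at 88368616 to 88372743. Their coding sequences are all 288 bases long. Those of *Bglap* and *Bglap2* differ at 4 bases (98.6% identity). They are shown because near-identical genes share reads, so that the split of counts between them is uncertain. The sequences are from GENCODE M21, 5′ to 3′, with the 4 differing bases in capitals.
Bglap: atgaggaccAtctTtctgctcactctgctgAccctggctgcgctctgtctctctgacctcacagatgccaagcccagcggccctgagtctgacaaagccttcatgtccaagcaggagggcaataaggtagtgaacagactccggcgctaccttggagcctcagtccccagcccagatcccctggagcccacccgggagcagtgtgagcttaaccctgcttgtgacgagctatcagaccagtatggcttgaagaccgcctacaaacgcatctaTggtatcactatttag
Bglap2: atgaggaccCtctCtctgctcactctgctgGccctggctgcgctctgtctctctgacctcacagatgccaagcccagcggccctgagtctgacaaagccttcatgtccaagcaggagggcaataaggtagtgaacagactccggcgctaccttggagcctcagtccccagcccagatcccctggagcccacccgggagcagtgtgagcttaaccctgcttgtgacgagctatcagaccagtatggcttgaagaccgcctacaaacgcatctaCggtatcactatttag
Of all stretches of 100 bases in the *Bglap* transcript, 192 of 341 (56.3%) also occur in *Bglap2*, which is 192 of 372 (51.6%) of those of *Bglap2*. Reads within these stretches fit both genes equally well. *Bglap3* differs from *Bglap* at 13 coding bases and from *Bglap2* at 9, and shares no stretch of 100 bases with *Bglap* and 20 with *Bglap2* (5.38% of those of *Bglap2*, 1.02% of those of *Bglap3*).

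The small integrin-binding ligand N-linked glycoprotein genes lie together on the plus strand of chromosome 5 within 238438 bp, with no other protein-coding gene between them. *Dmp1* is at 104202613 to 104214102, *Ibsp* at 104299171 to 104311469, *Mepe* at 104325329 to 104338611 and *Spp1* at 104435118 to 104441050. Each coding sequence holds the Arg-Gly-Asp codons once, which no other gene among the 10 does. They are shown in capitals with 9 coding bases on either side, and begin at codon 293 of 324 in *Ibsp*, 144 of 294 in *Spp1*, 350 of 503 in *Dmp1* and 183 of 441 in *Mepe*.
Ibsp: ggggagcctCGTGGCGACacttaccga
Spp1: cccaacggcCGAGGTGATagcttggct
Dmp1: agcgagtccAGGGGTGACaacccagat
Mepe: cttctagtgAGGGGAGATaatgatgtc
Asp and Glu make up 24.1% of the codons of *Ibsp*, 23.1% of *Spp1* and 28.0% of *Dmp1*, but 10.7% of *Mepe*. The longest run of Asp and Glu codons is 12 in *Ibsp*, 10 in *Spp1*, 6 in *Dmp1* and 2 in *Mepe*.

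*Sparc* lies on the minus strand of chromosome 11 at 55394500 to 55423183, the chromosome that also carries *Col1a1* and *Sost*, and the strain origin of that region in each group was not tested. *Mgp* lies on the minus strand of chromosome 6 at 136872435 to 136875823, and *Ifitm5* on the minus strand of chromosome 7 at 140948958 to 140950291. *Spp1* shares 309 exon bases with *Gm42793* on the same strand, which had 1484 counts over all mice. The motif AACCACA, a form of the site bound by the osteoblast factor RUNX2, was searched on both strands of RefSeq promoters (250 bases before to 50 bases after each start, GRCm38.p6). It was found in 2 of the 12 promoters of the 8 genes that have an entry, those of *Spp1* and *Dmp1*, and in 1731 of 32851 promoters overall (5.27%). Such a match is a description of the sequence and not a binding site.

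The libraries held 24366061 to 44418863 counts on genes. *Sost* averaged 53.4 ± 18.8 CPM (counts scaled to a common library size with TMM factors, SD) in WT, 39.9 ± 20.6 in Jrt;Sost-het mice and 0.671 ± 0.418 in Jrt;Sost-ko mice. It fell by 5.87 on the log2 scale against Jrt;Sost-het (edgeR, adjusted p = 0.0130) and fell by 6.29 against WT (adjusted p = 0.00895). All 10 osteoblast markers and 7 of 8 osteocyte markers had at least 10 counts in every mouse. Other tissues were also present in unequal amounts. Blood-forming cells gave the neutrophil markers (10 genes, 16352 to 30507 CPM in WT, 19405 to 25824 in Jrt;Sost-het mice and 16528 to 24397 in Jrt;Sost-ko mice) and the erythroid markers (9 of 10 genes in the files, 17085 to 30831, 15500 to 23555 and 16623 to 25512 CPM). The 16 skeletal muscle markers summed to 259 to 34929 CPM in WT, 2787 to 32389 in Jrt;Sost-het mice and 34.05 to 14221 in Jrt;Sost-ko mice. The 8 epidermis markers summed to 145 CPM in WT mouse 3 and 607 in WT mouse 4, against 5.36 to 15.6 in the other 10 mice, and 2 of these 8 genes had at least 10 counts in every WT mouse. The 11 chondrocyte markers summed to 4457 CPM in WT mouse 4 and 5358 in Jrt;Sost-het mouse 1, against 681 to 2147 in the others.

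Per length of merged exons, *Sparc* had the highest median over the 12 mice, 1997 CPM per kilobase. The order continued with *Bglap* at 970, *Spp1* at 671, *Bglap2* at 608 and *Ibsp* at 315. *Dmp1* (95.1), *Mepe* (47.0), *Mgp* (45.6) and *Ifitm5* (23.4 CPM per kilobase) formed the lower end, far above *Bglap3* at 0.471. Over all mice, only *Ifitm5* and *Bglap3* were neighbours in this order whose ranges did not overlap. With the length of the longest coding transcript instead, 8 of the 10 genes kept their rank, and *Mepe* and *Mgp* changed places. Reads of non-unique position stayed uncounted, and *Bglap* shares 56.3% of its stretches of 100 bases with *Bglap2*, which are 51.6% of those of *Bglap2*. The levels and ranks of these 2 genes may therefore be too low, by an amount that was not tested. *Bglap3* was counted with only 18 to 68 reads per library, against 10559 to 31989 for *Bglap*, so its values carry more counting error than those of the other genes.

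**Figure D1:**
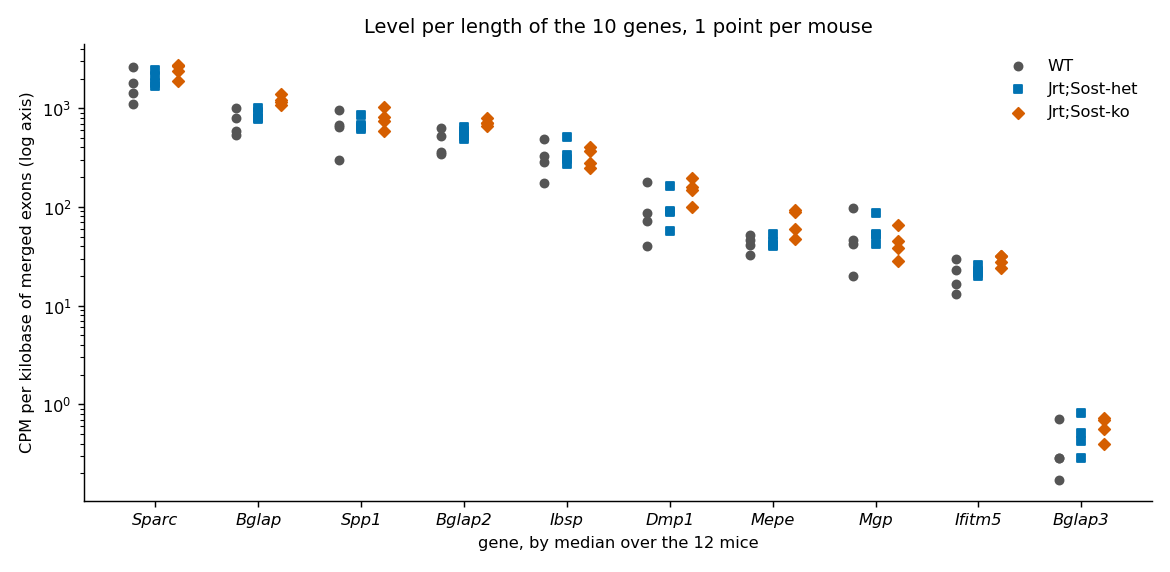
Level of each gene per kilobase of merged exons (log axis, CPM per kilobase) with 1 point per mouse, for WT, Jrt;Sost-het and Jrt;Sost-ko (n = 4 each). Genes are ordered by their median over the 12 mice, from *Sparc* at 1997 to *Bglap3* at 0.471, and most neighbours overlap.

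Jrt;Sost-ko mice against Jrt;Sost-het compares *Sost* -/- with *Sost* +/- in bone with the Jrt collagen, and no Jrt group was *Sost* +/+. Effects of *Sost* and of alleles linked to it on chromosome 11 cannot be told apart there. Jrt;Sost-het against WT asks how bone with the Jrt allele and *Sost* +/- together differs from WT bone. None of the 10 genes passed an adjusted p of 0.05 in any of the 3 comparisons, by edgeR, DESeq2 or limma-voom. Of all genes, DESeq2 called 0.033%, 0.0132% and 0.0879% in Jrt;Sost-ko mice against Jrt;Sost-het, in Jrt;Sost-het mice against WT and in Jrt;Sost-ko mice against WT, and limma-voom 0%, 0% and 0.0117%. In Jrt;Sost-ko mice against Jrt;Sost-het, 8 of the 10 had a higher mean (50.4% of all genes), with a median log2 difference of 0.31, against 0.0013 over all 16739 genes tested, of which 0.00597% (*Sost* alone) passed. At an unadjusted p under 0.05, 4 of 10 were higher (*Bglap*, *Bglap2*, *Mepe* and *Ifitm5*) and none lower, against 5.02% of all genes tested in either direction and 2.64% that were higher. In Jrt;Sost-het against WT, all 10 had a higher mean (51.3% of all genes), with a median of 0.17 (0.011 to 0.456 when 1 mouse was left out), and 0% of all genes passed the adjusted threshold. There, none of the 10 had an unadjusted p under 0.05 (all genes: 2.14%, higher 1.25%) and none lay apart from WT (all genes: 1.54%, higher 0.739%). In Jrt;Sost-ko against WT, 9 of the 10 had a higher mean (49.1% of all genes), with a median of 0.56, and 3 had an unadjusted p under 0.05 (*Bglap*, *Bglap2* and *Mepe*, all higher), against 3.89% of all genes tested in either direction and 2.26% that were higher. There, 0.00583% of all genes passed the adjusted threshold, again *Sost* alone. Many of the 10 genes were high or low in the same mice, so that these are not counts of independent genes. At the same threshold DESeq2 gave 4, 0 and 4 of the 10 genes and limma-voom with sample quality weights 6, 0 and 7, all higher, in the 3 comparisons in this order. The shares of all genes that were higher were 1.76%, 0.886% and 1.73% with DESeq2 and 4.6%, 2.72% and 5.56% with limma-voom.

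Single mice moved these counts. Without Jrt;Sost-het mouse 1, 5 genes of Jrt;Sost-ko mice lay wholly above Jrt;Sost-het (*Bglap*, *Bglap2*, *Dmp1*, *Mepe* and *Ifitm5*) and without Jrt;Sost-ko mouse 4 there were 4, in place of 2 (all genes: 3.94% and 4.06%, in place of 1.79%). Without WT mouse 4, which had the highest value of its group for all 10 genes, 7 genes of Jrt;Sost-ko mice lay wholly above WT in place of 2 (all genes: 3.72% in place of 1.29%). These were *Bglap*, *Bglap2*, *Bglap3*, *Dmp1*, *Mepe*, *Sparc* and *Ifitm5*, and the same 7 had an unadjusted edgeR p under 0.05 without that mouse (all genes, higher: 4.62%). In Jrt;Sost-het against WT, 4 genes (*Bglap*, *Bglap2*, *Bglap3* and *Sparc*) then had an unadjusted p under 0.05 in place of none (all genes, higher: 4.58%), and 1, *Bglap3*, lay wholly above WT (3.39%). WT mice 3 and 4, both with epidermis RNA, were also the highest of their group for *Bglap*, *Bglap2*, *Ibsp*, *Sparc*, *Mgp* and *Ifitm5*. Leaving both out keeps only WT mice 1 and 2, which held the lowest WT value of each of the 10 genes. A higher count against WT is then in part set by the choice of mice. The unadjusted counts were 6 in Jrt;Sost-het mice and 7 in Jrt;Sost-ko against WT (all genes, higher: 12.7% and 8.02%). None of these fits gave an adjusted p under 0.05 for any of the 10 genes, and the lowest was 0.109 in edgeR.

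**Figure D2:**
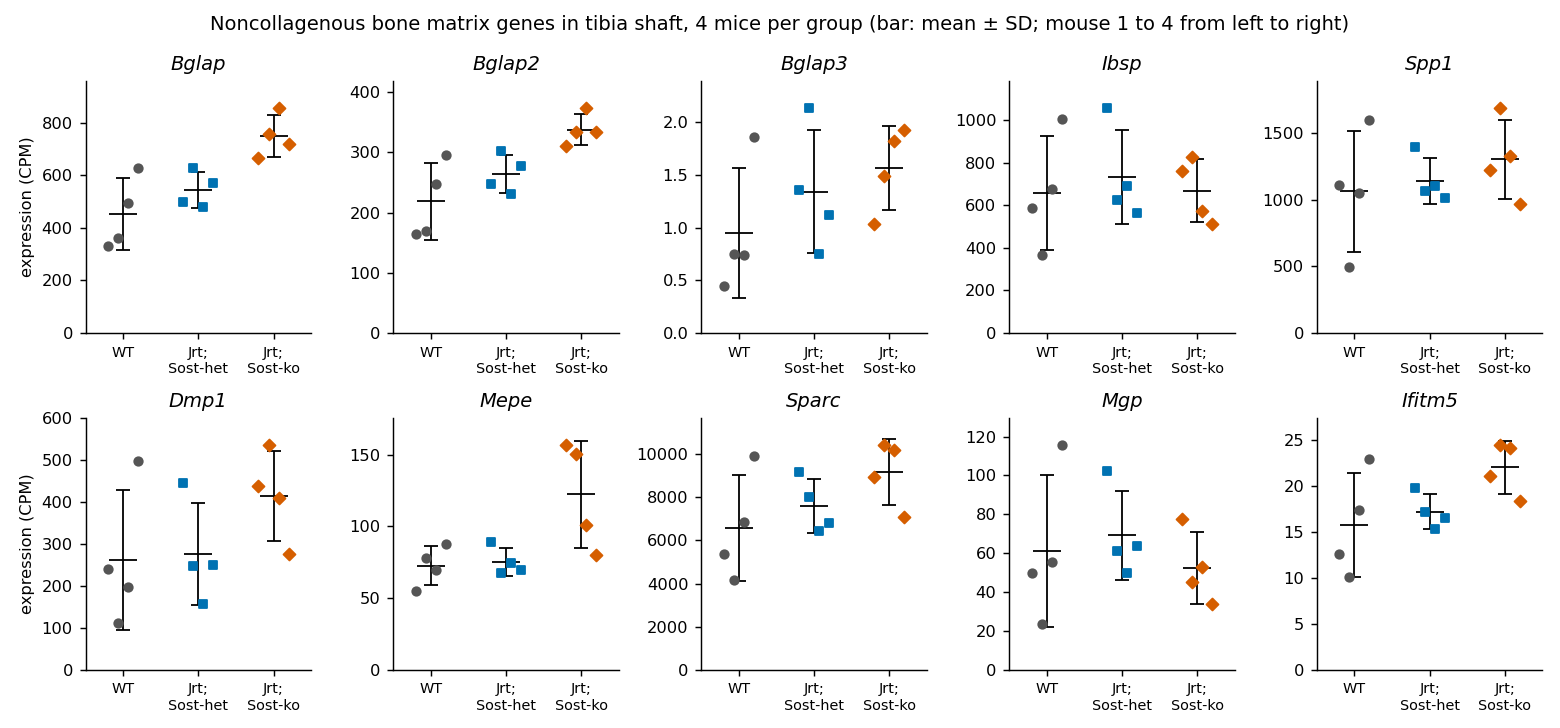
Expression of each gene in CPM (linear axes from 0), 1 point per mouse with mean and SD of 4 mice per group. All 4 Jrt;Sost-ko mice lie above the Jrt;Sost-het and WT mice for *Bglap* and *Bglap2*, whereas the groups overlap for the other 8 genes.

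*Bglap*, the more abundant osteocalcin gene, was at 330, 361, 495 and 627 CPM in WT mice 1 to 4. It was at 498, 627, 481 and 572 CPM in Jrt;Sost-het and at 667, 757, 855 and 717 CPM in Jrt;Sost-ko mice. Every Jrt;Sost-ko mouse thus lay above every other mouse, while Jrt;Sost-het and WT overlapped. In all, 3.2% of genes did not overlap between the Jrt;Sost-ko and the Jrt;Sost-het mice and 2.4% between Jrt;Sost-ko and WT. The log2 difference between the Jrt;Sost-ko and the Jrt;Sost-het mice was 0.46 (SE 0.113, a fold of 1.38 with a 95% interval of 1.15 to 1.64; edgeR p = 0.00288, adjusted p = 0.901, exact permutation p = 0.0286). That exact p is the smallest that 4 mice against 4 can give (2-sided, 70 arrangements). DESeq2 gave an adjusted p of 0.0611 for the same difference, the lowest for any of the 10 genes, and the adjusted p lay between 0.0611 and 0.9999 over all settings tried. Against WT the log2 difference was 0.73 in Jrt;Sost-ko (SE 0.207, adjusted p = 0.9996, exact permutation p = 0.0286) and 0.27 in Jrt;Sost-het mice (adjusted p = 0.99998, exact permutation p = 0.286).

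*Bglap2* followed the same order at a lower level. It was at 164, 170, 247 and 296 CPM in WT, 247, 302, 231 and 276 in Jrt;Sost-het and 310, 334, 373 and 334 in Jrt;Sost-ko mice. All 4 Jrt;Sost-ko mice again lay above all others. The log2 difference was 0.35 against Jrt;Sost-het (SE 0.098, adjusted p = 0.901, exact permutation p = 0.0286) and 0.63 against WT (SE 0.194, adjusted p = 0.9996, exact permutation p = 0.0286). *Bglap3* had 0.449 to 1.86 CPM in WT, 0.753 to 2.14 in Jrt;Sost-het mice and 1.04 to 1.92 in Jrt;Sost-ko mice. Its groups overlapped, and its log2 difference between the Jrt;Sost-ko and the Jrt;Sost-het mice was 0.22 with a 95% interval of the fold of 0.694 to 1.96. The counts of the 3 genes were also summed, which sets aside the split between them but does not bring back shared reads left uncounted. The log2 difference of the sum was 0.43 (SE 0.112) between the Jrt;Sost-ko and the Jrt;Sost-het mice. It was 0.27 between Jrt;Sost-het and WT and 0.70 between Jrt;Sost-ko and WT. The adjusted p was 0.901, 0.9999 and 0.9997 in edgeR for the 3 comparisons in this order.

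The ratio of *Bglap* to *Bglap2* counts within a library needs no normalisation, and was looked at after the values of both genes were seen, so it is given without a test. It was 2.02, 2.13, 2.01 and 2.12 in WT, 2.01, 2.08, 2.08 and 2.07 in Jrt;Sost-het and 2.15, 2.27, 2.29 and 2.15 in Jrt;Sost-ko mice. The Jrt;Sost-ko mice thus had the 4 highest ratios, and Jrt;Sost-het and WT overlapped. The means were 2.21 ± 0.0760 (SD) in Jrt;Sost-ko, 2.06 ± 0.0329 in Jrt;Sost-het and 2.07 ± 0.0646 in WT mice. How the counting treated reads that fit both genes is not given in the sources used here beyond reads of non-unique position staying uncounted, and whether it moves this ratio was not tested.

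**Figure D3:**
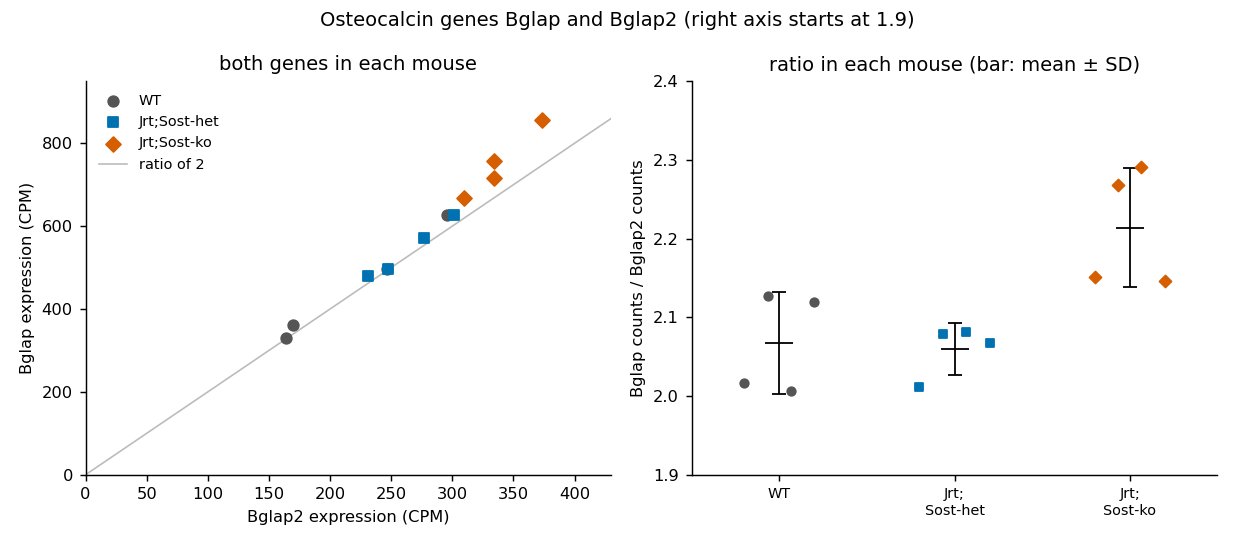
Left, CPM of *Bglap* against *Bglap2* in each mouse with a line for a ratio of 2. Right, ratio of *Bglap* to *Bglap2* counts per mouse with mean and SD (axis from 1.9), where the Jrt;Sost-ko mice lie between 2.15 and 2.29 and the other 8 mice between 2.01 and 2.13.

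Among the small integrin-binding ligand N-linked glycoprotein genes, *Mepe* differed most between the Jrt;Sost-ko and the Jrt;Sost-het mice. It was at 55.2, 77.7, 69.7 and 87.5 CPM in WT and 89.4, 67.3, 74.6 and 69.8 CPM in Jrt;Sost-het mice. The values in Jrt;Sost-ko mice were 157, 151, 101 and 80.4 CPM, of which mice 1 to 3 lay above all Jrt;Sost-het and WT mice and mouse 4 did not. The log2 difference was 0.70 against Jrt;Sost-het (SE 0.209, a fold of 1.63 with a 95% interval of 1.17 to 2.26; edgeR p = 0.00852, adjusted p = 0.901, exact permutation p = 0.0571) and 0.76 against WT (SE 0.237, adjusted p = 0.9996, exact permutation p = 0.0571). Jrt;Sost-het and WT had similar means, 75.3 ± 9.88 and 72.5 ± 13.6 CPM (SD), with a 95% interval of the fold of 0.819 to 1.32.

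*Dmp1*, the other product mainly of osteocytes, varied most within groups. It was at 241, 111, 198 and 498 CPM in WT, 446, 248, 157 and 251 in Jrt;Sost-het and 438, 537, 410 and 275 in Jrt;Sost-ko mice. The groups overlapped in all comparisons, since WT mouse 4 and Jrt;Sost-het mouse 1 reached the level of the Jrt;Sost-ko mice. The log2 difference was 0.59 between the Jrt;Sost-ko and the Jrt;Sost-het mice (SE 0.309, edgeR adjusted p = 0.901, exact permutation p = 0.114). It ranged from 0.39 to 0.92 when 1 mouse was left out, and was highest without Jrt;Sost-het mouse 1. Osteocyte markers other than these genes were 8 in all, with *Sost* and *Phex* among them. They summed to 191 to 355 CPM in WT, 218 to 323 in Jrt;Sost-het mice and 181 to 315 in Jrt;Sost-ko mice. WT mouse 4, Jrt;Sost-het mouse 1 and Jrt;Sost-ko mouse 2 were highest. Mean *Sost* was 53.4 CPM in WT and 39.9 CPM in Jrt;Sost-het mice, but 0.671 CPM in the knockout. The knockout itself thus lowers the last sum, and a sum without *Sost* was not computed. Of the 8 markers, 5 had a higher mean in Jrt;Sost-ko than in the Jrt;Sost-het mice (median 0.22 on the log2 scale). At an unadjusted edgeR p under 0.05, 1 was higher and 2 were lower, *Sost* among the latter. In such whole-tissue RNA, fewer cells of a type and less RNA per cell cannot be told apart.

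*Spp1* had 494 to 1599 CPM in WT (mean 1064 ± 452, SD), 1012 to 1399 in Jrt;Sost-het (1144 ± 174) and 970 to 1689 in Jrt;Sost-ko mice (1304 ± 298). Osteoclasts also express it, and the 12 osteoclast markers summed to 2436 to 3923 CPM in WT, 2626 to 3973 in Jrt;Sost-het mice and 2712 to 3361 in Jrt;Sost-ko mice. The groups overlapped for *Spp1*, and its log2 difference between the Jrt;Sost-ko and the Jrt;Sost-het mice was 0.19 (SE 0.174, adjusted p = 0.904). *Ibsp* was at 587, 365, 678 and 1006 CPM in WT, 1058, 625, 690 and 564 in Jrt;Sost-het and 763, 828, 573 and 515 in Jrt;Sost-ko mice. It was the only one of the 4 genes with a lower mean in Jrt;Sost-ko than in the Jrt;Sost-het mice, and the groups overlapped widely. The log2 difference was -0.13 (SE 0.223, adjusted p = 0.935, 95% interval of the fold 0.644 to 1.29), and became 0.09 without Jrt;Sost-het mouse 1, the highest of its group.

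*Sparc*, which took 67.8% to 73.2% of the counts of the 10 genes, was at 5359, 4173, 6878 and 9903 CPM in WT mice. Jrt;Sost-het mice had 9158, 8023, 6418 and 6793 CPM and Jrt;Sost-ko mice 8961, 10445, 10182 and 7109 CPM. The groups overlapped, with 3 of 4 Jrt;Sost-ko mice above 3 of 4 mice of each other group. The log2 difference was 0.27 against Jrt;Sost-het (SE 0.165, adjusted p = 0.901, exact permutation p = 0.171) and 0.48 against WT (SE 0.277, adjusted p = 0.9996, exact permutation p = 0.114). *Ifitm5*, the least abundant gene but *Bglap3*, was at 12.6, 10.1, 17.4 and 22.9 CPM in WT, 19.8, 17.2, 15.3 and 16.5 in Jrt;Sost-het and 21.1, 24.5, 24.2 and 18.4 in Jrt;Sost-ko mice. Of the Jrt;Sost-ko mice, 3 of 4 lay above all Jrt;Sost-het mice, and mouse 4 lay below Jrt;Sost-het mouse 1. For *Ifitm5* the log2 difference was 0.36 against Jrt;Sost-het (SE 0.118, a fold of 1.28 with a 95% interval of 1.07 to 1.54; edgeR p = 0.0142, adjusted p = 0.901, exact permutation p = 0.0571) and 0.49 against WT (adjusted p = 0.9996, exact permutation p = 0.114).

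*Mgp* was the only gene with a lower mean in Jrt;Sost-ko mice than in both other groups. It was at 49.9, 23.7, 55.2 and 116 CPM in WT, 102, 61.1, 49.8 and 63.6 in Jrt;Sost-het and 77.4, 45.2, 53.1 and 33.8 in Jrt;Sost-ko mice. WT mouse 4 and Jrt;Sost-het mouse 1 were highest and the groups overlapped. Its log2 difference was -0.40 against Jrt;Sost-het (SE 0.281, adjusted p = 0.901, exact permutation p = 0.286) and -0.22 against WT (adjusted p = 0.9996). The same 2 mice had the highest sums of chondrocyte markers, 4457 and 5358 CPM, and 8 of the 11 markers (9 of 11 in each Jrt group) had at least 10 counts in every mouse of a group. In Jrt;Sost-ko mice against Jrt;Sost-het, 10 of 11 chondrocyte markers had a lower mean (median -1.72 on the log2 scale), 2 of them with an unadjusted edgeR p under 0.05. Of all genes, 50.4% had a higher mean and 5.02% passed in either direction. The marker sums were 5358, 1537, 1147 and 1854 CPM in Jrt;Sost-het and 2147, 1468, 1665 and 1388 in Jrt;Sost-ko mice. Only Jrt;Sost-het mouse 1 thus stood apart, and the median without it was not computed. Leaving out 1 mouse gave -0.655 to -0.159 for *Mgp* against Jrt;Sost-het, the latter without Jrt;Sost-het mouse 1. Without WT mouse 4 the log2 difference of *Mgp* to WT was 0.29. The 7 vascular smooth muscle markers, another tissue that makes matrix Gla protein, summed to 133 to 371 CPM in WT, 236 to 387 in Jrt;Sost-het mice and 154 to 369 in Jrt;Sost-ko mice. All 6 that could be tested had a lower mean in Jrt;Sost-ko than in the Jrt;Sost-het mice (median -0.39), with no unadjusted p under 0.05. The part of cartilage and vessel RNA in the *Mgp* values was not tested.

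**Figure D4:**
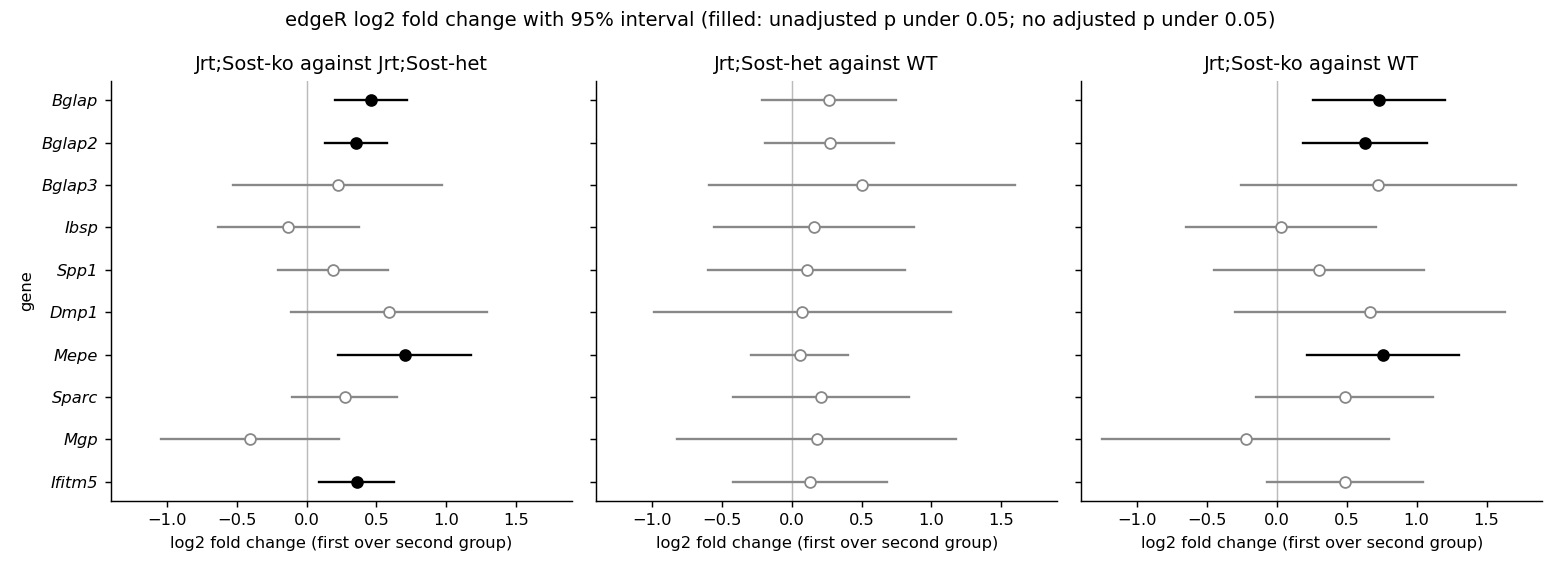
Log2 fold change of each gene by edgeR with its 95% interval for the 3 comparisons. Filled points mark an unadjusted p under 0.05 (4, 0 and 3 genes), and no gene had an adjusted p under 0.05.

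The 10 genes differed in their spread between mice of a group. The pooled SD of log2 CPM within groups was 0.668 for *Dmp1*, 0.662 for *Mgp* and 0.616 for *Bglap3*, and 0.281 for *Bglap* and 0.268 for *Bglap2*, the lowest of the 10. The median over 16535 genes was 0.193, so that all 10 genes varied more between mice of a group than the median gene. The values of a mouse went together across genes. WT mouse 4 was highest in its group for all 10 genes, and WT mouse 2 was lowest for 6 and WT mouse 1 for the other 4. Jrt;Sost-het mouse 1 was highest for 7 genes, mouse 3 was lowest for 7, and Jrt;Sost-ko mouse 4 was lowest for 7 although it had the highest *Bglap3*. Neutrophil markers were highest in the mice in which most of the 10 genes were lowest, WT mouse 2, Jrt;Sost-het mouse 3 and Jrt;Sost-ko mouse 4. They were lowest in WT mouse 4, Jrt;Sost-het mouse 1 and Jrt;Sost-ko mouse 3. None of the 10 neutrophil markers had a higher mean in either Jrt group than in WT, and 3 of 10 had one in Jrt;Sost-ko than in the Jrt;Sost-het mice (medians -0.08, -0.15 and -0.07 on the log2 scale), with no unadjusted p under 0.05. Their part in the values of the 10 genes was not tested. The 10 osteoblast markers, which hold *Col1a1* and *Col1a2* but none of the 10 genes, summed to 21828 to 55425 CPM in WT with mouse 4 highest, 33076 to 53965 in Jrt;Sost-het with mouse 1 highest and 40380 to 67632 in Jrt;Sost-ko mice. *Col1a1* plus *Col1a2* alone gave 21428.8 to 54590.5 CPM in WT, 32537.8 to 53178.6 in Jrt;Sost-het and 39874.4 to 66811.5 in Jrt;Sost-ko mice. The marker sum is thus almost all collagen type I. Of these markers, 9, 10 and 10 of 10 had a higher mean in the first group of the 3 comparisons (all genes: 50.4%, 51.3% and 49.1%). Their medians were 0.26, 0.20 and 0.38 on the log2 scale, and none had an unadjusted p under 0.05.

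To set the 10 genes against the collagen they are laid down with, their counts were divided by those of *Col1a1* plus *Col1a2* in the same library. Collagen type I itself averaged 34992 ± 14378 CPM in WT, 41194 ± 9295 in Jrt;Sost-het mice and 54501 ± 11895 in Jrt;Sost-ko mice (SD), and no difference in *Col1a1* or *Col1a2* had an unadjusted edgeR p under 0.05. *Col1a1* carries the Jrt allele in both Jrt groups. On this scale *Bglap* was at 1.35% ± 0.245 of the collagen counts in WT, 1.37% ± 0.297 in Jrt;Sost-het mice and 1.41% ± 0.260 in Jrt;Sost-ko mice, with a log2 difference of 0.06 (SE 0.215) between the Jrt;Sost-ko and the Jrt;Sost-het mice. *Bglap2* differed by -0.04 (SE 0.218). Relative to collagen all groups thus overlapped for both genes, and the exact permutation p was 0.857 for each in this comparison.

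*Ibsp* was lowest relative to collagen in Jrt;Sost-ko mice. It made up 2.11%, 1.70%, 1.88% and 1.84% of collagen counts in WT, 1.99%, 1.43%, 2.12% and 1.60% in Jrt;Sost-het and 1.52%, 1.36%, 0.858% and 1.29% in Jrt;Sost-ko mice. There was no overlap between Jrt;Sost-ko and WT (log2 difference -0.61, SE 0.190, exact permutation p = 0.0286), while Jrt;Sost-ko mouse 1 overlapped Jrt;Sost-het (-0.52, SE 0.223, exact permutation p = 0.0571). *Sparc* showed a small difference of the same sign, 17.0% ± 1.22 of collagen counts in Jrt;Sost-ko against 19.0% ± 0.583 in WT with no overlap (-0.16, SE 0.0578, exact permutation p = 0.0286) and 18.6% ± 1.10 in Jrt;Sost-het mice with overlap. These 2 of 10 genes stand beside 11.4% of all 17155 genes tested that lay wholly lower relative to collagen in Jrt;Sost-ko than in WT. Over *Sparc* in place of collagen, 1 of the 9 other genes, *Ibsp*, lay wholly lower in Jrt;Sost-ko mice than in WT (all genes: 8.18%). In all, 30 such tests were made, of 10 genes in 3 comparisons, and these p-values are not adjusted for their number. *Mgp* had 0.0980% ± 0.0374 in Jrt;Sost-ko against 0.166% ± 0.0240 in Jrt;Sost-het mice (log2 difference -0.82, SE 0.264, exact permutation p = 0.0857), with Jrt;Sost-ko mouse 1 alone overlapping. Between the Jrt;Sost-ko and the Jrt;Sost-het mice, 0 of 10 genes lay apart (all genes: 4.8%, lower 4.79%). Lower without overlap were 2 (*Ibsp* and *Mgp*) without Jrt;Sost-ko mouse 1, 1 (*Sparc*) without Jrt;Sost-het mouse 1 and 1 (*Ibsp*) without Jrt;Sost-het mouse 2, where the shares of all genes were 7.71%, 22% and 6.47%. Between Jrt;Sost-het and WT 0 of 10 lay apart (all genes: 0.519%, lower 0.447%).

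**Figure D5:**
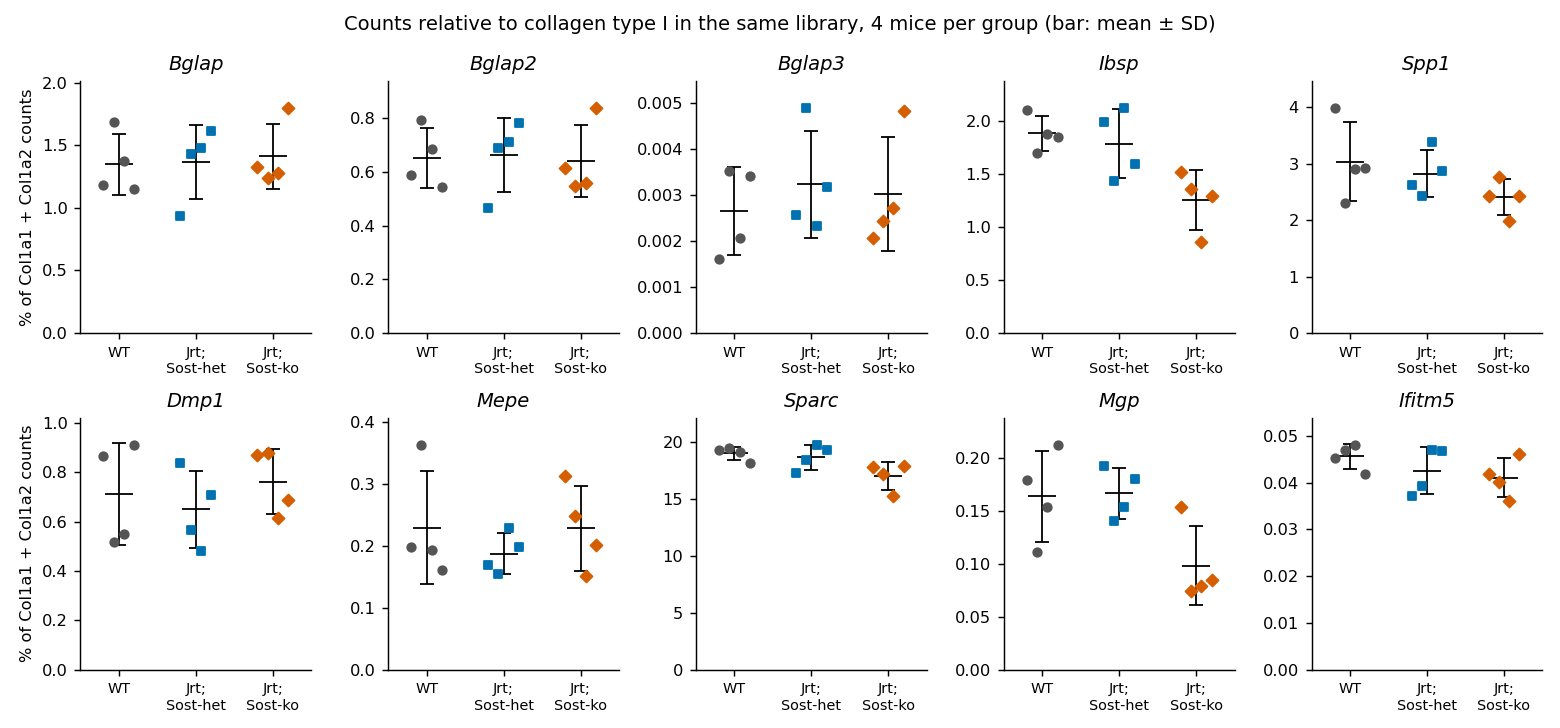
Counts of each gene as a percentage of *Col1a1* plus *Col1a2* counts in the same library (linear axes from 0), 1 point per mouse with mean and SD. *Ibsp* and *Sparc* lie lower in all Jrt;Sost-ko mice than in all WT mice, and *Bglap* and *Bglap2* overlap between all groups.

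Together the 10 genes took 0.934% ± 0.338 of all counts in WT, 1.08% ± 0.177 in Jrt;Sost-het mice and 1.28% ± 0.197 in Jrt;Sost-ko mice (SD). Leaving out 1 mouse gave a difference between Jrt;Sost-het and WT of 0.0292 to 0.295 percentage points, in place of 0.144. The exact permutation p was 0.2 between the Jrt;Sost-ko and the Jrt;Sost-het mice, 0.486 between Jrt;Sost-het and WT and 0.114 between Jrt;Sost-ko and WT.

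Genes that act with these proteins were counted in 8 lists of 70 genes, of which 63 had enough counts to be tested and none passed an adjusted p of 0.05. Over the 63, the median log2 difference was 0.06 in Jrt;Sost-ko mice against Jrt;Sost-het, 0.09 in Jrt;Sost-het against WT and 0.16 in Jrt;Sost-ko against WT. At an unadjusted edgeR p under 0.05 there was 1 higher and 3 lower in the first comparison, 1 higher in the second and 1 higher and 1 lower in the third. These are counts of 63, and of all genes 5.02%, 2.14% and 3.89% passed in either direction, so that by this count the lists do not stand out. By direction, 45, 50 and 49 of the 63 had a higher mean in the first group of the 3 comparisons (all genes: 50.4%, 51.3% and 49.1%). The cause of this lean was not tested. The higher gene against Jrt;Sost-het as well as against WT was *Omd* (osteomodulin, a proteoglycan of bone matrix), at 62.7 CPM in Jrt;Sost-ko, 49.9 in Jrt;Sost-het and 42.2 in WT mice (log2 difference 0.33, SE 0.135, against Jrt;Sost-het). The lower ones against Jrt;Sost-het were *Fn1* (fibronectin), at -0.64, and the SPARC relatives *Sparcl1*, at -0.65, and *Smoc1*, at -0.44, each with an adjusted p of 0.901. *Smoc1* was also the gene of the second comparison, at 0.37 in Jrt;Sost-het against WT, and *Ifitm10* the lower gene of the third, at -0.49. These genes were named after their values were seen.

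By role, the enzymes that modify the small integrin-binding ligand N-linked glycoproteins had 7 of 8 genes with a higher mean in Jrt;Sost-ko than in the Jrt;Sost-het mice. Their median was 0.13, and among them were the kinase *Fam20c* (38.0 against 33.9 CPM) and the peptidase *Phex* (142 against 114 CPM). The vitamin K and Gla processing list, with the carboxylase *Ggcx* (22.7 against 21.3 CPM), had 4 of 7 higher and a median of 0.0029. Mineral deposition genes, with the alkaline phosphatase gene *Alpl* (273 against 261 CPM), had 7 of 7 higher and a median of 0.10. Transcription regulators of bone matrix genes, with *Runx2* (71.4 against 66.4 CPM) and *Sp7* (102 against 85.2 CPM), had 7 of 9 higher and a median of 0.11. The integrins and other receptors had 7 of 9 higher and a median of 0.06, the other matrix glycoproteins 6 of 11 (0.01), the SPARC relatives 4 of 6 (0.02) and the IFITM relatives 3 of 6 (0.02). For comparison, 50.4% of all genes tested had a higher mean in Jrt;Sost-ko than in the Jrt;Sost-het mice, and none of the genes named here by role, chosen after their values were seen, had an unadjusted p under 0.05. *Dspp*, the remaining small integrin-binding ligand N-linked glycoprotein gene, known mainly from dentin, had too few counts to be tested.

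The pattern over the 12 mice was compared by the SD of the log2 ratio between 2 genes, which is 0 for genes in constant proportion, with all genes of at least 10 CPM on average. Groups, libraries and shared reads all enter this measure, and it is a description. *Bglap* was most like *Bglap2* (SD 0.062, of 10430 genes compared), followed by *Omd* (0.138) and *Serpinf1* (0.150, the gene of pigment epithelium-derived factor). *Sparc*, on chromosome 11, and *Ifitm5*, on chromosome 7, were each other's nearest gene (0.078). Next to *Sparc* came *Col5a2* (0.078) and *Col1a2* (0.082), both fibrillar collagen genes, and next to *Ifitm5* came *Bambi* (0.089) and *P4ha1* (0.099, a collagen prolyl hydroxylase). The median SD over all genes compared was 0.442 for *Sparc* and 0.419 for *Ifitm5*.

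The other genes had no neighbour as close. *Spp1* was nearest to *Cd109* (SD 0.127), *Ibsp* to *Srpx2* (0.196), *Mgp* to *Susd5* (0.200) and *Col27a1* (0.218), a cartilage collagen gene, and *Mepe* to *Junb* (0.235). *Dmp1* was nearest to *Aldh1l2* (0.257) and *Phex* (0.257), which is also expressed in osteocytes, and *Bglap3* to *Fasn* (0.303). Of the 45 pairs among the 10 genes, *Bglap3* and *Mgp* were least alike (SD 0.776), and the pairs on chromosome 5 ranged from 0.235 for *Ibsp* and *Spp1* to 0.544 for *Dmp1* and *Mepe*.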

How the data were processed

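Poly(A) RNA from the tibia shaft of 12 mice (4 per group) was sequenced as paired-end reads. Per the methods and the labels, the authors aligned reads to GRCm38 with STAR after bcl2fastq 2.20. The counting tool, its strand setting and its annotation release are not given in the sources used here. The deposited matrix holds whole-number read counts per gene, not normalised, and all of its sample columns were used (0 left out). The per-mouse files were used only for their lines of unassigned reads (no feature 9.54% to 11.2%, ambiguous 0.602% to 0.674%). Columns of log2 fold changes and p-values that the authors deposited hold their own comparisons and were not used.

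Every comparison was fitted separately, on the 8 mice concerned, with edgeR 4.0.16 (quasi-likelihood test, TMM scaling, its default filter on low counts) in R 4.3.3, with Benjamini-Hochberg adjustment over all genes tested and a threshold of 0.05. Fits were also run on simulated counts, drawn for each gene on its own. The outcome of that run is not given here, and it does not cover genes that vary together between mice. Group means are of TMM-normalised CPM, and a prior count of 2 went into log2 CPM. The share of all counts on genes that the 10 genes took, and their ratio to *Col1a1* plus *Col1a2* counts, were computed per library. Single values were compared by exact 2-sided permutation tests over 70 arrangements, whose smallest p is 0.0286. Alternatives were DESeq2 1.42.0, limma 3.58.1 (voom), other scalings and filters, a single fit of all mice, summed osteocalcin genes and leaving out each mouse. Leaving out WT mice 3 and 4, and the *Bglap* to *Bglap2* ratio, were added after the data were seen. Labels do not say more on how mice were sampled, so p-values measure the spread between these mice.

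The 10 genes and all lists were chosen with earlier results of these data known. The 10 genes are named throughout. From the other lists, genes are named if the adjusted p is under 0.05, or as the largest rise or fall among genes whose groups do not overlap, and for likeness as the nearest 3. By this rule *Sost* and *Sbsn* qualified, *Sbsn* (an epidermis marker) at 4.42 CPM in Jrt;Sost-ko against 8.73 in Jrt;Sost-het mice (log2 difference -0.98, adjusted p = 0.901). Other genes named were chosen after their values were seen. Positions are from GENCODE M21 (GRCm38), in which 46488 of the 47069 genes (98.8%) were found.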

Additional observations from a re-analysis of the deposited data

How the results depend on the processing

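No paired analysis was possible because the mouse numbers follow accession order and pair no mice between groups. Of the log2 fold changes of the 10 genes under alternatives, 501 kept their direction and their side of the threshold and 20 reversed, and no gene was called in any fit. Under limma-voom the reversed values were 0.0266 for *Ibsp* in Jrt;Sost-ko mice against Jrt;Sost-het and 0.130 for *Mgp* in Jrt;Sost-ko against WT, and without WT mice 3 and 4 *Mgp* was at 0.514. Leaving out 1 mouse gave -0.251 to 0.0933 for *Ibsp* in Jrt;Sost-ko mice against Jrt;Sost-het. In Jrt;Sost-het against WT it gave -0.0667 to 0.439 for *Ibsp*, -0.125 to 0.374 for *Spp1*, -0.253 to 0.595 for *Dmp1*, -0.0534 to 0.156 for *Mepe*, -0.0821 to 0.692 for *Mgp* and -0.0271 to 0.365 for *Ifitm5*. In Jrt;Sost-ko against WT it gave -0.489 to 0.290 for *Mgp* and -0.171 to 0.310 for *Ibsp*. The difference in the *Bglap* to *Bglap2* ratio between Jrt;Sost-het and WT was -0.0277 to 0.0123.

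The count of genes at an unadjusted p under 0.05 was 2 in a single fit of all mice for Jrt;Sost-ko mice against Jrt;Sost-het, and 7 under limma-voom for Jrt;Sost-ko against WT (all genes, higher: 5.56%). The share of all genes was not computed for the single fit, so its count cannot be set against it. In the main fit of that comparison the share was 5.02% in either direction. Without WT mice 3 and 4 the count was 6 in Jrt;Sost-het (median log2 fold change 0.670) and 7 in Jrt;Sost-ko (0.958) against WT. This setting keeps only WT mice 1 and 2, the lowest of WT for these genes, so its values are in part set by that choice. Leaving out 1 mouse gave a median of 0.241 to 0.389 in Jrt;Sost-ko mice against Jrt;Sost-het, 0.0111 to 0.456 in Jrt;Sost-het against WT and 0.371 to 0.782 in Jrt;Sost-ko against WT. It gave counts of 0 to 4 in Jrt;Sost-het mice and 3 to 7 in Jrt;Sost-ko against WT. Counts without overlap were then 2 to 5 in Jrt;Sost-ko mice against Jrt;Sost-het, 0 to 1 in Jrt;Sost-het against WT and 2 to 7 in Jrt;Sost-ko against WT.

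Relative to collagen, 1 gene lay apart between the Jrt;Sost-ko and the Jrt;Sost-het mice over *Col1a2* alone, and 0 to 2 when 1 mouse was left out. Between Jrt;Sost-ko and WT it was 1 over *Sparc* (all genes, lower: 8.18%), and 2 to 3 when 1 mouse was left out. In the main setting 4.8% and 11.4% of all genes lay apart in these comparisons. This share was not computed over *Col1a2* alone or against WT without 1 mouse, so those counts cannot be set against it. Over *Sparc*, the log2 ratios of *Bglap2* (0.0891), *Bglap3* (0.0151) and *Ifitm5* (0.0845) in Jrt;Sost-ko mice against Jrt;Sost-het and of *Bglap2* (0.129) and *Ifitm5* (0.00772) against WT changed sign, as did that of *Sparc* over *Col1a2* alone in Jrt;Sost-het against WT (0.00577). The cause of these changes was not tested.

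With 4 mice per group, the 1.38-fold difference in *Bglap* between the Jrt;Sost-ko and the Jrt;Sost-het mice did not pass the adjusted threshold although the groups lay apart. *Bglap3* had 18 to 68 counts per library, and how much of its spread is counting error was not tested.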
